A study of Homo sapiens with 6 samples.

Results

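The set holds the chromatin remodeller and Polycomb genes of the human genome as chosen by gene symbol: protein-coding genes whose symbol begins with SMARC or with ARID and a digit up to 5, the numbered CHD, BRD, ING and CBX genes, and EZH1, EZH2, SUZ12, EED, RING1, RNF2, BMI1 and JARID2. It comes to 60 of the 61852 genes in the deposited table, of which 19838 are protein-coding. 58 of the 60 are described. The rule uses no measured value, but it was set with earlier results of these data known. The genes were measured by poly(A) RNA-seq in MEG-01, an established human megakaryoblastic leukaemia line, in 2 groups of 3 libraries. The knockdown cells carried the lentiviral short hairpin sh2-MELK, and the control cells carried the pLKO.1 vector. MELK is a serine/threonine kinase of proliferating cells. Both groups are the same line, and the knockdown rests on a single hairpin. All library names share a prefix, and the names do not say whether it marks a batch. Per the labels the 3 libraries of a group are biological replicates. The labels do not say whether they came from separate transductions, and a p-value here speaks only of the variation among these libraries.

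Remodellers are ATP-driven machines that slide, evict or space nucleosomes. The SWI/SNF complexes are built around SMARCA4 or SMARCA2, the ISWI complexes around SMARCA5 or SMARCA1, and the NuRD deacetylase complexes around CHD3, CHD4 or CHD5. Readers carry small domains that dock on modified histones: bromodomains on acetylated lysines, the PHD finger of ING proteins on methylated histone H3, and the chromodomain of the HP1 proteins on heterochromatin. Polycomb proteins keep developmental genes silent. PRC2 methylates histone H3 through EZH1 or EZH2, a CBX protein of PRC1 reads that mark, and RING1 or RNF2 adds ubiquitin to histone H2A. In blood cells, the subunit that fills a given slot of these complexes is known to change as stem cells mature.

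The RefSeq promoter table (GRCh38.p14, 250 bases before to 50 bases after a transcription start) held 80 windows for 47 of the 58 members, and windows of a gene can overlap. The members' windows were rich in CpG, with a median of 27 CpG per window, against 14 over all 34796 windows in the table. 4 are shown because their genes are described below and changed in both directions: ARID1A and CHD4 were higher in the knockdown, and RING1 and SMARCB1 were lower. Capitals mark CpG, and each window reads in the direction of its gene.
ARID1A, chr1:26695765-26696064, plus strand: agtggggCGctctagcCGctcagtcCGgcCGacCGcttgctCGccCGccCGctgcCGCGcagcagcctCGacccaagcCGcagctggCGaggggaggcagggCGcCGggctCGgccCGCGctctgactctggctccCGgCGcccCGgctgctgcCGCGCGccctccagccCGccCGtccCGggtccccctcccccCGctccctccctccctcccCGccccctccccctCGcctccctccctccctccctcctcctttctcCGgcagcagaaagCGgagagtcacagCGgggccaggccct
CHD4, chr12:6606402-6606701, minus strand: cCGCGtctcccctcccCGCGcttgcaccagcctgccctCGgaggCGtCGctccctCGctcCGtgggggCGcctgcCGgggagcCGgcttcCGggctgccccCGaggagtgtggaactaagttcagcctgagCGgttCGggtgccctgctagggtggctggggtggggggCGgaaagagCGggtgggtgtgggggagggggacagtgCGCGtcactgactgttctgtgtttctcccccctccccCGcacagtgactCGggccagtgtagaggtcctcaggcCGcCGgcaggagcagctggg
RING1, chr6:33208250-33208549, plus strand: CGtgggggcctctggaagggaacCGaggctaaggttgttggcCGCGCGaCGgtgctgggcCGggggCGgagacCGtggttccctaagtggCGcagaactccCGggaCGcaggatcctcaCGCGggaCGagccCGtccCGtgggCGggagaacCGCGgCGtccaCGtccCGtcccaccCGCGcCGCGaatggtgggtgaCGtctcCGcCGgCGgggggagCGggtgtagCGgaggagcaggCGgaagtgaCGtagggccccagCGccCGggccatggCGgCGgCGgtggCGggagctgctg
SMARCB1, chr22:23786716-23787015, plus strand: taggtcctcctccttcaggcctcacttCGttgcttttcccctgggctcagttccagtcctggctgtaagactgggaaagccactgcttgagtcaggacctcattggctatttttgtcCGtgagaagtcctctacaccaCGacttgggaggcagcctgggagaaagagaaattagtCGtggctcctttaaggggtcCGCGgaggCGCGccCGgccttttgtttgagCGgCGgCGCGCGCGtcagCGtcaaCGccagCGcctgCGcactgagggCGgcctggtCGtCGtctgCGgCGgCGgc
The 4 windows held 33 CpG for ARID1A, 24 for CHD4, 41 for RING1 and 25 for SMARCB1. None of the 4 held the E2F motifs TTTCCCGC and TTTGGCGC, the ETS motif CCGGAAGT or the E-box CACGTG on either strand, and SMARCB1 held 1 CCAAT. Over the members' windows, 4 of 80 (5.0%) held an E2F motif, against 2.27% of all windows. The ETS motif stood in 3.75% of the members' windows, against 4.13% of all windows. CCAAT stood in 27.5% of them, against 34.6% of all, and the E-box in 5.0%, against 7.2%. Such matches describe letters and are not binding sites.

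The deposited counts set how well each member could be measured. They appeared to hold, on top of the reads, an added number that was 0, 1, 2, 10 or 100. This is inferred from the values, and where it was added is unknown. In 35797 genes (57.9%) all 6 values were among these numbers, which genes with 0, 1 or 2 reads can also show. Genes were therefore tested only with a mean above 100 counts over the 6 libraries, a level that no gene made of the added number alone can reach. With equal chances of its values, the added number has a SD of 38.9 counts, in libraries of 18945176 to 21711313 counts. Library-specific offsets that remove trends with GC content and transcript length were 1 of the other fits, called the GC and length correction here. Levels are given in CPM, counts scaled to a common library total after TMM normalization, and changes as edgeR log2 fold changes of knockdown over control with their SE.

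MELK, the targeted gene, had 0.793, 5.97 and 1.34 CPM in the knockdown libraries, against 10.4, 10.4 and 11.3 CPM in the control libraries (16, 124 and 26 counts, against 219, 206 and 238). All knockdown libraries lay below all control libraries, and the second stood nearest to them. Its change was -1.98 ± 0.60 on the log2 scale (edgeR's quasi-likelihood test, Benjamini-Hochberg adjusted p = 0.0142), and the call was lost without knockdown library 3 (-1.66, adjusted p = 0.0593), with edgeR's own low-count filter and against a fold change of 1.5. Without knockdown library 2 it was -3.32 (adjusted p = 0.000116), and a model of reads and added number, described with the low members, gave -3.40 (-3.88 to -2.98). Of the megakaryocyte markers, 7 of 12 were tested, with 1 higher and 5 lower, beside 28.2% higher and 29.0% lower over all genes tested. Their summed level was 1483 to 1545 CPM in the knockdown, against 2562 to 2689 CPM in the control. Most of it was ITGA2B, an integrin of the platelet surface, at 1031 ± 17.9 CPM in the knockdown and 1971 ± 60.1 CPM in the control (SD, n = 3 each). FLI1 was the higher marker, by 0.68 ± 0.08 on the log2 scale, while ITGB3 (-0.70 ± 0.07) and GATA1 (-0.56 ± 0.04) were among the lower. PF4 and PPBP, which encode platelet granule chemokines, held no more than 100 counts in any library, the largest of the added numbers. Markers of other cell types summed to 78.7 to 81.0 CPM in the knockdown, against 56.7 to 65.5 CPM in the control, and KRT18, a keratin, supplied most of that. CD3E, a T cell marker, held at most 100 counts. In bulk RNA, fewer cells of a type and less RNA per cell cannot be told apart, and the part of these markers in the members' changes was not tested.

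Across the set, 12 members were higher in the knockdown and 11 were lower, while 23 of the 46 that could be tested did not pass the threshold (adjusted p below 0.05). The largest increases among the members that passed were in ARID3B, CHD4 and ARID5A, and the largest decreases were in CHD5, SMARCC2 and CBX2. The members' median log2 fold change was 0.0049, and the median of all 9356 genes tested was -0.0025. The share past the threshold over all genes was 57.2% (28.2% higher, 29.0% lower). The groups did not overlap in 24 of the 46 members, and in 63.8% of all genes tested. Neither share of the members was above its background. 6 members passed also when tested against a fold change of 1.5, namely ARID3B and ARID5A among the increases and CHD5, SMARCC2, CBX2 and SMARCD2 among the decreases. These 6 also passed under all the other settings tried, but their size moved. With the GC and length correction the decreases were smaller: CHD5 gave -1.44, SMARCC2 -0.76, CBX2 -0.58 and SMARCD2 -0.52. The increases were larger, at 1.54 for ARID3B and 1.10 for ARID5A.

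**Figure D1:**
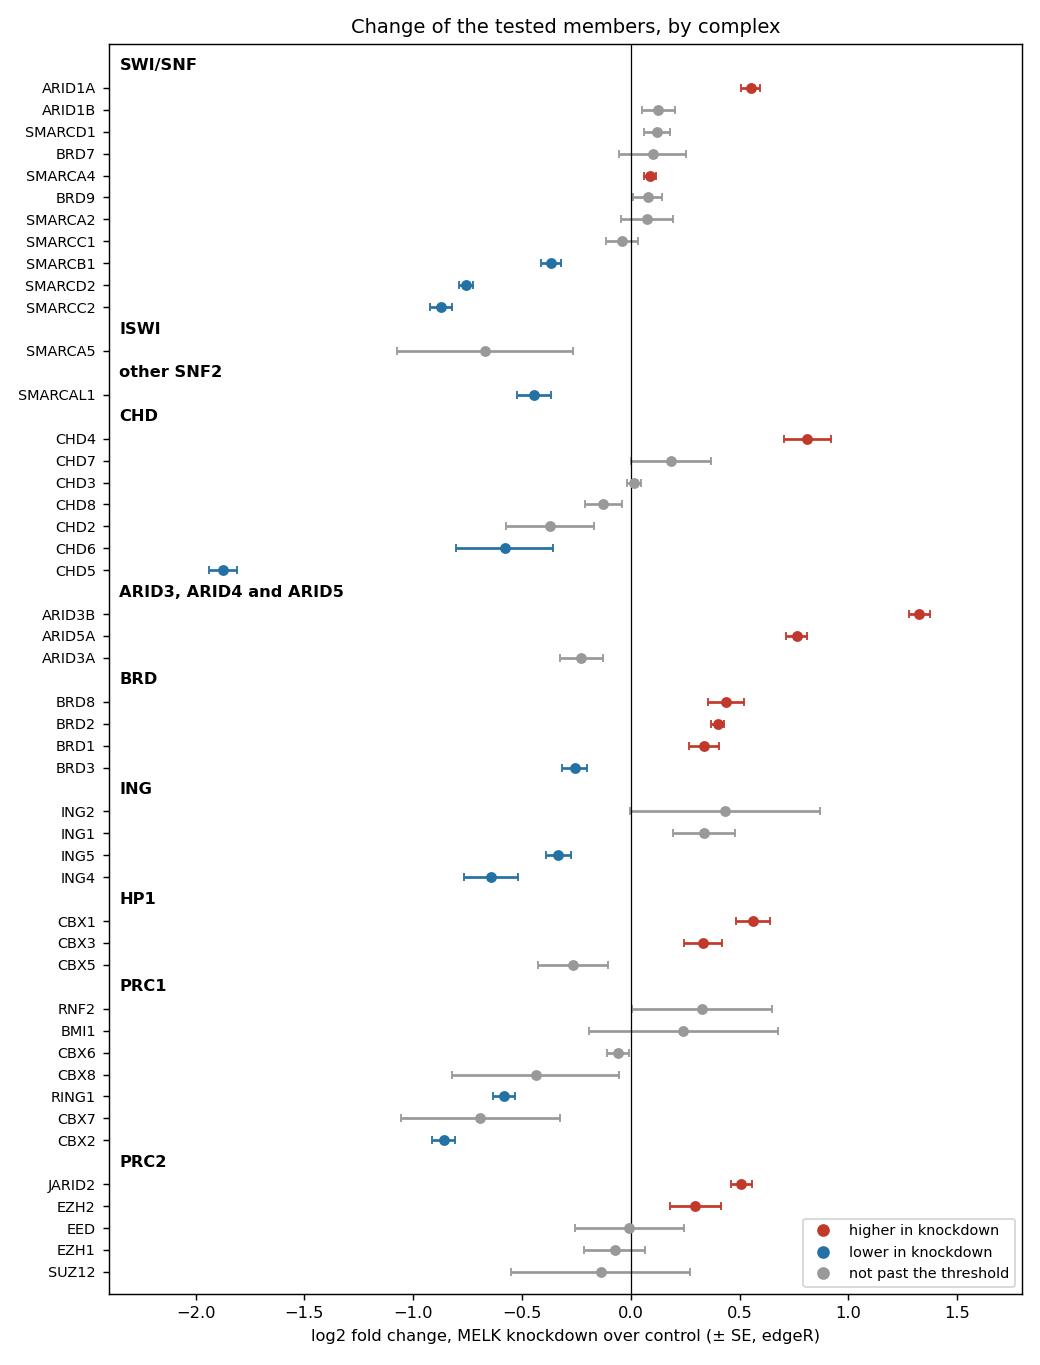
Log2 fold change of the 46 tested members, knockdown over control, with the SE as bars, grouped by complex; red marks members higher in the knockdown, blue lower, and grey not past the threshold. PRC1 has 2 members on the lower side past the threshold and none on the higher side, and the SWI/SNF and CHD groups hold members on both sides.

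By class, 11 of 23 tested remodellers passed, 5 higher and 6 lower. The remodeller class here also holds the ARID3, ARID4 and ARID5 genes, of which 3 were tested and 2 were higher. Of 11 tested readers, 8 passed, 5 higher and 3 lower. Of 12 Polycomb members, all tested, 4 passed, 2 higher and 2 lower. These are 47.8% of the remodellers, 72.7% of the readers and 33.3% of the Polycomb members. Over all genes tested, 57.2% passed, 28.2% higher and 29.0% lower. The same background applies to the counts by complex below. ISWI and the other SNF2 ATPases had 1 tested member each.

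SWI/SNF, the complex that opens chromatin at enhancers and promoters, had 11 of its 14 members tested, of which 2 were higher and 3 lower, with a median log2 fold change of 0.08. The decreases were in the core: SMARCD2 averaged 194 ± 3.86 CPM in the knockdown and 329 ± 7.51 CPM in the control, and SMARCC2 averaged 79.1 ± 5.19 CPM in the knockdown and 145 ± 2.47 CPM in the control (SD, n = 3 each). ARID1A, the DNA-binding subunit of the BAF form, rose to 178 ± 4.61 CPM in the knockdown, against 122 ± 5.89 CPM in the control. The ATPase SMARCA4 was higher by 0.09 on the log2 scale.

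SMARCD2 (chromosome 17, 63832081 to 63843065, GRCh38), a core subunit known to be needed for granulocyte formation, had 192, 199 and 192 CPM in the knockdown libraries, against 337.5, 323 and 328 CPM in the control libraries. The groups were far apart, and the log2 fold change was -0.76 ± 0.03 (adjusted p = 3.80e-09). SMARCC2 (chromosome 12, 56162983 to 56189567), a scaffold subunit, had 83.5, 80.5 and 73.4 CPM in the knockdown, against 147, 147 and 143 CPM in the control. Again no library crossed over, at -0.87 ± 0.05 (adjusted p = 4.26e-08). SMARCB1, the core subunit lost in rhabdoid tumours, had 84.1, 85.1 and 89.4 CPM in the knockdown, against 115, 107 and 113 CPM in the control. Its knockdown libraries were all lower, at -0.37 ± 0.05 (adjusted p = 3.46e-05), but with the GC and length correction the value was -0.06 (adjusted p = 0.313).

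ARID1A (chromosome 1, 26693236 to 26782110) had 183, 174 and 176 CPM in the knockdown, against 115, 127 and 124 CPM in the control. All 3 knockdown libraries were above the control, at 0.55 ± 0.04 (adjusted p = 6.09e-07), and at 0.90 with the GC and length correction. SMARCA4, also called BRG1, had 667, 660.3 and 652.5 CPM in the knockdown, against 624.5, 628 and 620.5 CPM in the control. It was the most abundant member by count, and its groups did not overlap although they differed by only 0.09 ± 0.03 (adjusted p = 0.0163). That call was lost without knockdown library 1, with no filter and against a fold change of 1.5, while the GC and length correction gave 0.45.

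The other tested subunits did not pass. SMARCA2, the alternative ATPase, gave 0.07 ± 0.12, and SMARCC1, the partner of SMARCC2, -0.04 ± 0.07. SMARCD1, an alternative to SMARCD2 in the complex, gave 0.12 ± 0.06 (adjusted p = 0.109). ARID1B, the alternative to ARID1A, gave 0.13 ± 0.08 (adjusted p = 0.181). BRD7 of the PBAF form gave 0.10 ± 0.15, and BRD9 of the non-canonical form 0.08 ± 0.07. The GC and length correction turned the sign of SMARCA2 (-0.07) and BRD7 (-0.09). ARID2, SMARCD3 and SMARCE1 were too low to test.

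**Figure D2:**
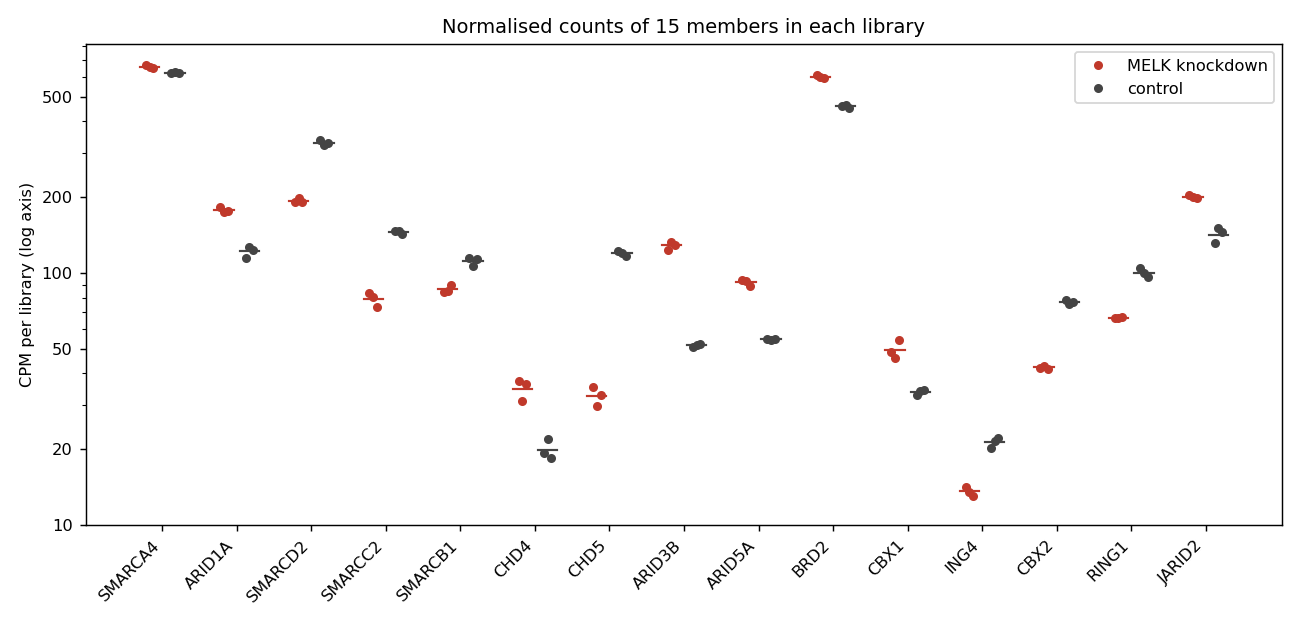
CPM of 15 members in each library on a log axis, knockdown in red to the left of control in grey, with the group mean as a bar. In each of the 15 members the 3 knockdown libraries lie on one side of the 3 control libraries, from SMARCA4, where the gap is small, to CHD5, at 29.7 to 35.3 CPM in the knockdown and 117 to 123 CPM in the control.

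ISWI had SMARCA5 as its only tested member, the ATPase that spaces nucleosomes. It had 4.71, 8.33 and 2.93 CPM in the knockdown, against 8.29, 6.47 and 10.8 CPM in the control. The groups overlapped, and the change of -0.67 ± 0.40 did not pass (adjusted p = 0.179). Of the other SNF2 ATPases, SMARCAL1, which rewinds DNA at stalled replication forks, had 30.6, 30.0 and 32.6 CPM in the knockdown, against 40.9, 45.5 and 41.0 CPM in the control. All knockdown libraries were lower, at -0.445 ± 0.08 (adjusted p = 0.000505).

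The CHD family showed the largest spread, with 7 of 9 members tested, 1 higher and 2 lower, and a median of -0.13. Its NuRD ATPases differed among themselves: CHD5 fell to 32.6 ± 2.77 CPM in the knockdown, against 119.9 ± 2.62 CPM in the control, CHD4 stood at 34.8 ± 3.33 CPM in the knockdown and 19.9 ± 1.85 CPM in the control, and CHD3 at 362 ± 8.43 CPM in the knockdown and 359.6 ± 4.20 CPM in the control (SD, n = 3 each).

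CHD5 (chromosome 1, 6101793 to 6180123), known as a tumour suppressor expressed mostly in the nervous system, had 35.3, 29.7 and 32.7 CPM in the knockdown, against 123, 120 and 117 CPM in the control. It had the largest change of any tested member, -1.87 ± 0.06 (adjusted p = 6.25e-10), or 0.273 times the control level. CHD4 (chromosome 12, 6570082 to 6614524), the main NuRD ATPase of most tissues, had 37.2, 31.0 and 36.2 CPM in the knockdown, against 19.3, 21.98 and 18.4 CPM in the control. All knockdown libraries were above the control, at 0.81 ± 0.11 (adjusted p = 5.34e-05). CHD3 had 367, 352 and 366 CPM in the knockdown, against 358, 364 and 356 CPM in the control. These overlapped, at 0.02 ± 0.03 (adjusted p = 0.681), and the GC and length correction gave 0.29 (adjusted p = 1.37e-05).

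CHD6 had 10.8, 7.89 and 9.35 CPM in the knockdown, against 16.3, 15.5 and 10.3 CPM in the control, and its groups overlapped. It passed barely, at -0.58 ± 0.22 (adjusted p = 0.0442), and lost the call in 10 of the 17 other fits tried. The model of reads and added number gave a smaller change, -0.24 (-0.40 to -0.06). CHD2 had 14.2, 12.99 and 12.1 CPM in the knockdown, against 23.1, 13.8 and 14.3 CPM in the control, with overlap (-0.37 ± 0.20, adjusted p = 0.141). CHD7, mutated in CHARGE syndrome, gave 0.19 ± 0.18, and CHD8, a regulator of beta-catenin signalling, -0.13 ± 0.08. None of these 3 passed.

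The remaining ARID genes, DNA-binding proteins outside SWI/SNF, had 3 of 7 members tested, of which 2 were higher. ARID3B (chromosome 15, 74541177 to 74598131), a relative of the B cell factor Bright, had 123, 133 and 130 CPM in the knockdown, against 50.7, 51.8 and 52.4 CPM in the control. It was 2.51 times the control level, at 1.33 ± 0.05 on the log2 scale (adjusted p = 1.02e-09). ARID5A, known for binding and stabilising inflammatory mRNAs, had 94.1, 93.2 and 89.2 CPM in the knockdown, against 54.7, 54.4 and 54.6 CPM in the control. Its groups were well apart, at 0.76 ± 0.05 (adjusted p = 8.87e-08). ARID3A, the gene for Bright, had 26.4, 25.03 and 24.5 CPM in the knockdown, against 28.6, 32.8 and 27.8 CPM in the control. No library crossed over, but -0.23 ± 0.10 did not pass (adjusted p = 0.0687), and the GC and length correction turned it to 0.09.

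Of 4 bromodomain genes outside SWI/SNF, all tested, 3 were higher and 1 lower, with a median of 0.37. BRD2, a BET protein that holds transcription factors on acetylated chromatin, had 613, 599.5 and 595 CPM in the knockdown, against 459.5, 464 and 453 CPM in the control. Every knockdown library was higher, at 0.40 ± 0.03 (adjusted p = 2.58e-07). BRD8, a subunit of the TIP60 acetyltransferase complex, had 70.4, 70.6 and 73.7 CPM in the knockdown, against 45.8, 54.5 and 59.1 CPM in the control, with no overlap (0.44 ± 0.08, adjusted p = 0.000721). BRD1, a scaffold of HBO1 and MOZ acetyltransferases, had 66.7, 62.4 and 59.4 CPM in the knockdown, against 49.9, 46.7 and 53.4 CPM in the control, again apart (0.34 ± 0.07, adjusted p = 0.00127).

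BRD3, a BET protein like BRD2, went the other way. It had 74.6, 74.3 and 79.5 CPM in the knockdown, against 85.9, 90.6 and 97.8 CPM in the control, and all its knockdown libraries were lower (-0.26 ± 0.06, adjusted p = 0.00232).

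Among the ING genes, 4 of 5 were tested and 2 were lower. ING4 (chromosome 12, 6650280 to 6663148) and ING5 encode alternative subunits of the HBO1 acetyltransferase complexes. ING4 had 14.2, 13.5 and 13.1 CPM in the knockdown, against 20.2, 21.6 and 22.2 CPM in the control, a clear gap (-0.64 ± 0.12, adjusted p = 0.000846). ING5 had 53.1, 51.8 and 52.1 CPM in the knockdown, against 63.6, 65.4 and 69.6 CPM in the control, also apart (-0.33 ± 0.06, adjusted p = 0.000365), and -0.19 with the GC and length correction. ING1 and ING2 serve SIN3 deacetylase complexes. ING1 had 22.2, 24.0 and 28.7 CPM in the knockdown, against 17.3, 23.4 and 18.9 CPM in the control, with overlap (0.34 ± 0.14, adjusted p = 0.0635). ING2 gave 0.43 ± 0.44, and its knockdown values of 3.42, 4.52 and 9.20 CPM spanned the control values of 3.43, 4.75 and 4.57 CPM.

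CHD4 and ING4 lie 35.8 kb apart on chromosome 12 and changed in opposite directions. The HP1 proteins package heterochromatin, and 2 of the 3 were higher. CBX1, or HP1 beta, had 48.6, 46.2 and 54.1 CPM in the knockdown, against 32.9, 34.2 and 34.3 CPM in the control, with no overlap (0.56 ± 0.08, adjusted p = 6.54e-05). CBX3, or HP1 gamma, had 31.5, 34.0 and 34.8 CPM in the knockdown, against 28.2, 26.6 and 25.1 CPM in the control (0.33 ± 0.09, adjusted p = 0.00712). Its groups were apart, but the GC and length correction left 0.04 (adjusted p = 0.711). CBX5, or HP1 alpha, had 17.2, 12.4 and 13.1 CPM in the knockdown, against 18.3, 16.5 and 16.9 CPM in the control, with overlap (-0.26 ± 0.16, adjusted p = 0.180). The annotation holds 10 pseudogenes named after CBX3, 5 after CBX1 and 7 each after BRD7 and SMARCE1, so reads of these members may be split with near-identical copies.

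Of PRC1, 7 members were tested, with 2 lower and none higher, and a median of -0.44. None was higher at an unadjusted p below 0.05 either, or with DESeq2 or limma-voom, but CBX6 was with the GC and length correction (0.28, adjusted p = 0.000143). Over all genes tested, 29.0% were lower. The members that fell were CBX2 and RING1. CBX2 averaged 42.3 ± 0.565 CPM in the knockdown and 77.0 ± 1.28 CPM in the control, and RING1 66.7 ± 0.558 CPM in the knockdown and 100.3 ± 4.21 CPM in the control (SD, n = 3 each).

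CBX2 (chromosome 17, 79778132 to 79787983), a chromodomain subunit that compacts chromatin, had 42.2, 42.9 and 41.8 CPM in the knockdown, against 78.3, 75.8 and 77.1 CPM in the control. Libraries within each group were tight, and the change was -0.86 ± 0.05 (adjusted p = 7.30e-08). RING1 (chromosome 6, 33208495 to 33212722), the ubiquitin ligase subunit, had 66.1, 66.6 and 67.2 CPM in the knockdown, against 105, 100.1 and 96.2 CPM in the control. It was lower in all 3 knockdown libraries, at -0.58 ± 0.05 (adjusted p = 9.48e-07), and at -0.29 with the GC and length correction.

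The other PRC1 members did not pass, and most were low. CBX8, which lies 4.15 kb from CBX2 on chromosome 17, gave -0.44 ± 0.38, with 9.31, 4.19 and 4.57 CPM in the knockdown and 7.48, 6.27 and 10.9 CPM in the control. CBX7, the chromodomain subunit of stem cells, had 4.66, 4.48 and 5.14 CPM in the knockdown, against 11.3, 6.12 and 5.71 CPM in the control, at -0.69 ± 0.37 (adjusted p = 0.129); the groups did not overlap, and control library 1 stood above the rest. CBX6 gave -0.06 ± 0.05 at 92.1 ± 5.68 CPM in the knockdown and 96.3 ± 0.961 CPM in the control. RNF2, the alternative to RING1, gave 0.33 ± 0.32, and BMI1, a self-renewal factor of blood stem cells, 0.24 ± 0.43 (-0.06 with the GC and length correction).

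PRC2 had all 5 members tested, 2 of them higher, with a median of -0.01. JARID2 (chromosome 6, 15246296 to 15522040), an accessory subunit that recruits PRC2, had 205, 200.1 and 199 CPM in the knockdown, against 131, 150.4 and 145 CPM in the control. All knockdown libraries were higher, at 0.51 ± 0.05 (adjusted p = 2.89e-06). EZH2, the methyltransferase of dividing cells, had 24.5, 26.2 and 27.2 CPM in the knockdown, against 21.7, 18.3 and 23.7 CPM in the control. It was just past the threshold, at 0.30 ± 0.12 (adjusted p = 0.0487), lost the call when any single library other than control library 3 was left out, and gave 0.04 with the GC and length correction.

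The PRC2 core beside EZH2 did not pass. EZH1, the methyltransferase of resting cells, had 29.2, 28.8 and 22.3 CPM in the knockdown, against 25.2, 34.0 and 25.9 CPM in the control (-0.07 ± 0.14). EED, which binds the finished mark, had 10.3, 11.6 and 11.3 CPM in the knockdown, against 8.15, 15.7 and 9.62 CPM in the control (-0.01 ± 0.25). SUZ12, the scaffold, had 3.96, 3.56 and 8.48 CPM in the knockdown, against 7.05, 5.10 and 5.52 CPM in the control (-0.14 ± 0.41). In all of them the groups overlapped.

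Because several members are alternatives for the same slot, 16 pairs with both genes tested were set against each other as log2 ratios within each library, in counts per kb of merged exon. The groups did not overlap in 10 of the 16 pairs, and in 59.4% of all pairs of tested genes. Such a ratio needs no scaling between libraries, but the GC and length correction was not applied to it. With 3 libraries against 3, the two-sided exact permutation test cannot go below p = 0.10, which these 10 pairs reached (adjusted over the 16 pairs, 0.16).

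In SWI/SNF the ratio of SMARCC1 to SMARCC2 was 0.25, 0.15 and 0.13 in the knockdown, against -0.70, -0.60 and -0.66 in the control, so that on this scale SMARCC1 stood above SMARCC2 in the knockdown and below it in the control. Their order depends on the length used: per kb of the longest transcript, SMARCC2 stood above SMARCC1 in both groups, at 18.5 against 12.6 CPM per kb in the knockdown and 34.0 against 12.98 CPM per kb in the control. The ratio of SMARCD1 to SMARCD2 was -1.46, -1.32 and -1.47 in the knockdown, against -2.34, -2.20 and -2.34 in the control. That of ARID1A to ARID1B was higher by 0.43 in the knockdown, and that of SMARCA4 to SMARCA2 differed by 0.03, with overlap. Among the NuRD ATPases the ratio of CHD4 to CHD3 was -3.69, -3.89 and -3.72 in the knockdown, against -4.59, -4.43 and -4.65 in the control. CHD3 thus had more counts per kb than CHD4 in all 6 libraries.

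The largest difference was in ARID3A to ARID3B, at -2.44, -2.63 and -2.62 in the knockdown, against -1.04, -0.87 and -1.13 in the control. In PRC1 the ratio of RNF2 to RING1 was higher by 0.90 in the knockdown, with RNF2 at 133 modelled reads in the knockdown and 107 in the control. RNF2 had a mean of only 123 counts, and the 2 genes differ in GC content (38.1% for RNF2, 61.6% for RING1). With the GC and length correction the log2 fold change was 0.03 for RNF2 and -0.29 for RING1. In HP1 the ratio of CBX1 to CBX5 was higher by 0.84 and that of CBX3 to CBX5 by 0.61. The log2 fold changes with the GC and length correction were 0.41 for CBX1, 0.04 for CBX3 and -0.35 for CBX5. The ratio of CHD7 to CHD8 was higher by 0.30, and the ratio of ING4 to ING5 differed by -0.31. The ratio of EZH2 to EZH1, at 0.37, 0.49 and 0.91 in the knockdown and 0.41, -0.26 and 0.50 in the control, overlapped. So did CBX2, CBX6 and CBX7 against CBX8, whose low counts are open to the added number.

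**Figure D3:**
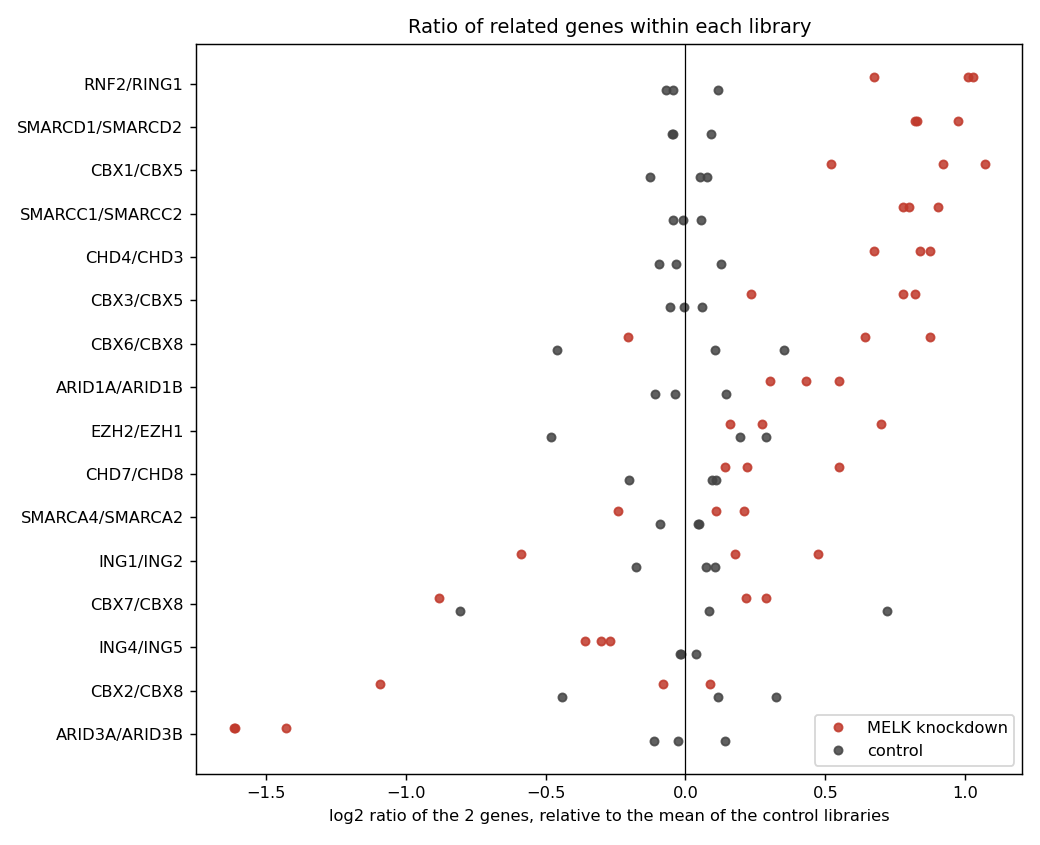
Log2 ratio of 2 related genes in each library, relative to the mean of the 3 control libraries, knockdown in red above control in grey, for the 16 pairs with both genes tested. RNF2/RING1, SMARCD1/SMARCD2 and CBX1/CBX5 lie farthest to the right and ARID3A/ARID3B farthest to the left, and in 10 pairs the groups do not overlap. The ratios are without the GC and length correction.

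The low members needed another treatment. A model that fitted the reads and the added number together gave estimates with 95% intervals for them, without a test. SMARCA5 was at 73.5 reads in the knockdown and 139 in the control, -0.92 (-1.18 to -0.68). SUZ12 was at 71.5 reads in the knockdown and 118 in the control, -0.72 (-0.98 to -0.44). CBX8 was at 86.8 reads in the knockdown and 132 in the control, -0.60 (-0.86 to -0.36). These are the 3 largest of 9 members whose interval lay below 0 among the 23 that did not pass the edgeR test. The others were CBX5 (-0.44), CBX7 (-0.40), CHD2 (-0.26), EZH1 (-0.18), ARID3A and CHD8 (-0.16 each). For 6 members the interval lay above 0: CHD7 at 0.36 (0.14 to 0.50), ING1 at 0.36 (0.22 to 0.50), RNF2 at 0.32 (0.10 to 0.56), BMI1 at 0.28 (0.04 to 0.54), EED at 0.22 (0.04 to 0.40) and SMARCD1 at 0.12 (0.02 to 0.22). For the other 8 it reached 0. EED and ING2 had the opposite sign in the model, where ING2 was at -0.06 (-0.34 to 0.22).

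Of the 12 members under the filter, 4 had intervals on a single side of 0 and reads in both groups, again without a background share. ARID5B, a leukaemia susceptibility gene, was at 62.2 reads in the knockdown and 11.5 in the control, 2.44 (1.92 to 3.00). Its deposited counts were 69, 76 and 50 in the knockdown, against 106, 117 and 13 in the control, where 2 control values lie just above 100. SMARCD3, the SWI/SNF subunit of muscle and heart, was at 13.4 reads in the knockdown and 33.8 in the control, -1.34 (-1.90 to -0.76), from counts of 116, 111 and 14 in the knockdown and 46, 36 and 30 in the control. For both, edgeR without the filter on the mean gave the opposite sign, so their direction rests on the model. ARID4A, which binds the retinoblastoma protein, was at 11.2 reads in the knockdown and 24.9 in the control, -1.16 (-2.0 to -0.46). Its relative ARID4B was at 43.4 reads in the knockdown and 29.9 in the control, 0.54 (0.08 to 1.04).

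The other low members gave intervals that reached 0. These were ARID2 at -0.02, ING3 at 0.22, CHD1 at -0.26, SMARCAD1 at -0.38 and CHD9 at -0.42. SMARCE1 had about 10 modelled reads in each group (9.85 in the knockdown, 10.6 in the control), and SMARCA1 had 2.83 reads in the knockdown and 2.11 in the control, so that neither could be compared. ARID3C was at 0.0625 reads in the knockdown and 3.78 in the control, both too close to 0 for a fold. ING2, with a mean of 100.67 counts, stood just inside the filter, and CHD9, with 91.2, just outside it.

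**Figure D4:**
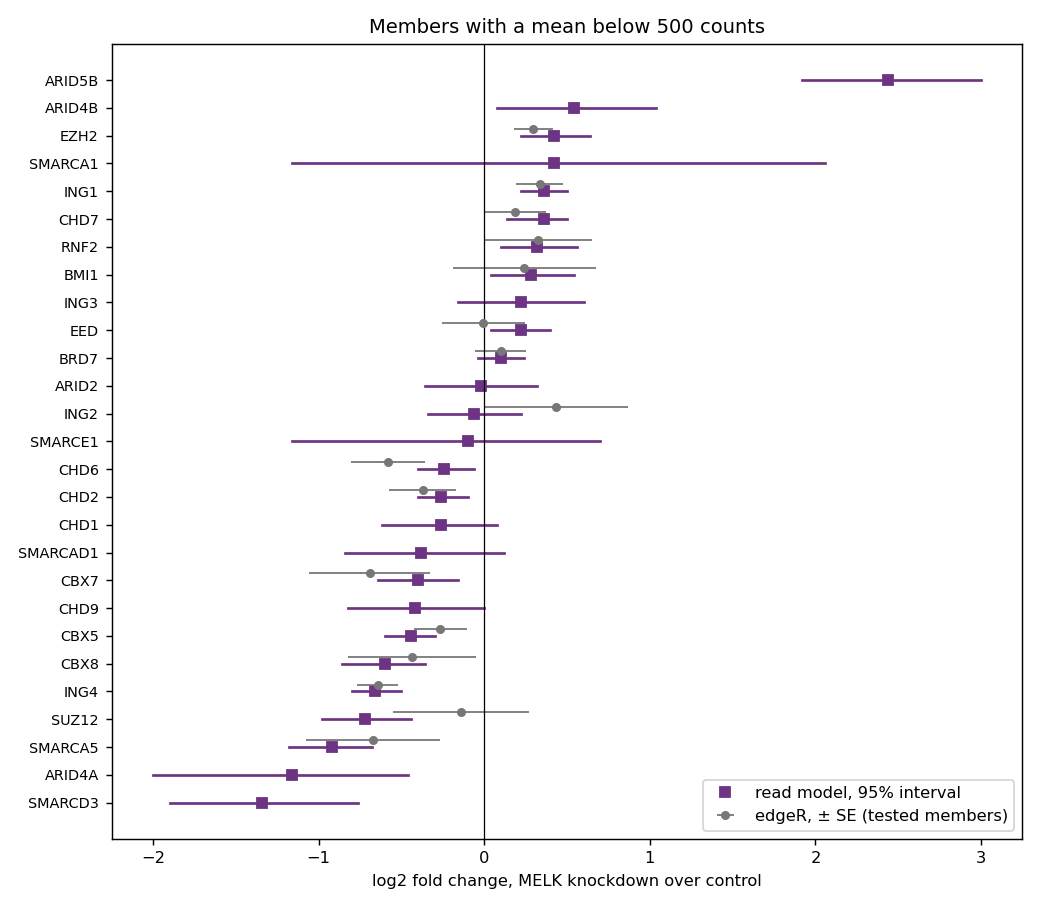
Log2 fold change, knockdown over control, of members with a mean below 500 counts: purple squares are the model of reads and added number with 95% intervals, and grey points the edgeR value with its SE where the member was tested. ARID5B lies farthest to the right at 2.44 and SMARCD3 farthest to the left at -1.34; ARID3C is not drawn.

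A member's level followed the GC content of its transcript. Over the 58 members the Spearman correlation between CPM per kb of the longest transcript and GC content was 0.667, across genes that share libraries. The 20 members under 45% GC had a median of 0.86 CPM per kb and 10 of them were tested, while the 38 at or above it had 11.3 CPM per kb and 36 tested. ARID2, CHD1, SUZ12, EED, BMI1 and RNF2 are in the low-GC group. The change was also related to GC: Spearman -0.175 over the 46 tested members and -0.339 over the 9325 tested genes with a known GC content, falling to 0.0076 after the correction. With the correction 15 members were higher and 10 lower, against 12 and 11 without it, and 55.4% of the 9325 genes passed. SMARCB1, CBX3 and EZH2 lost their calls, and CHD3, SMARCD1, ARID1B, BRD9 and CBX6 gained one, all 5 higher. How GC content entered the counts was not tested.

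**Figure D5:**
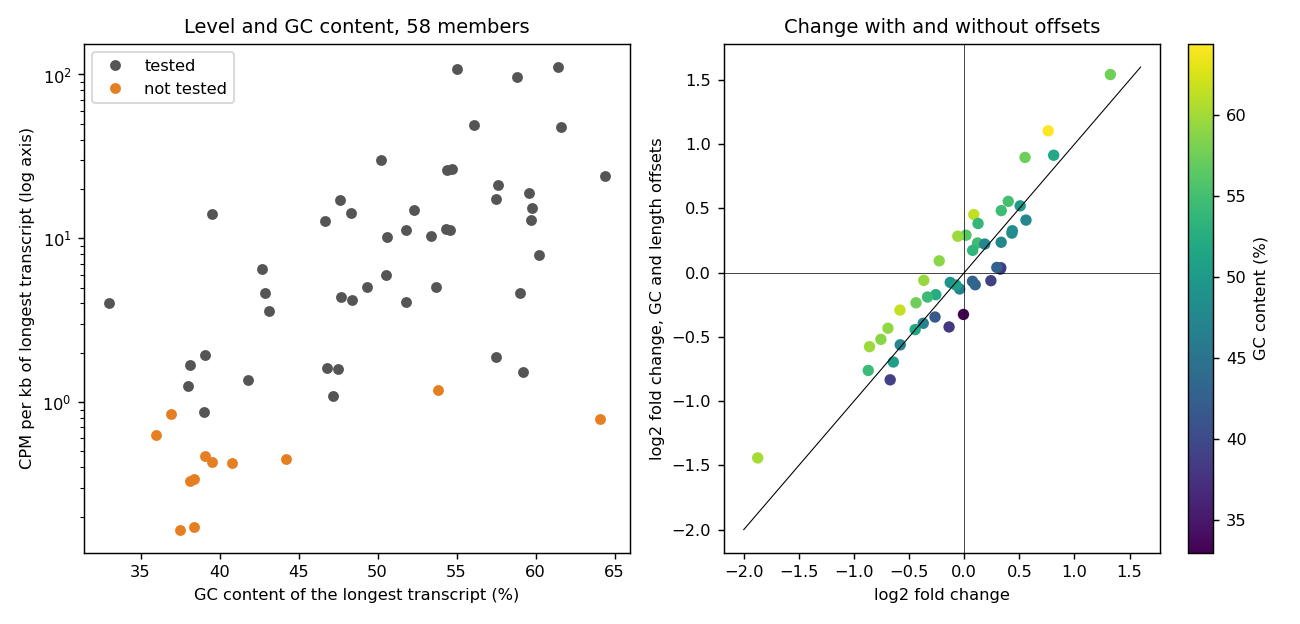
Left, mean level of the 58 members in CPM per kb of the longest transcript on a log axis against GC content, with untested members in orange. Right, each tested member's log2 fold change with GC and length offsets against that without, coloured by GC content; members of high GC lie above the diagonal and members of low GC below it.

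Partners of these proteins outside the set were read from lists of known subunits. The background for every list below is the share over all genes tested, 57.2% past the threshold (28.2% higher, 29.0% lower). Of 12 NuRD partners, all tested, 2 were higher and 4 lower. MTA1, a NuRD scaffold, stood at 146 ± 3.28 CPM in the knockdown and 227 ± 7.78 CPM in the control, -0.63 ± 0.04 (adjusted p = 5.28e-08). RBBP4, a histone chaperone shared by NuRD and PRC2, fell by 0.53 ± 0.06 on the log2 scale, and GATAD2B by 0.49 ± 0.08. MBD2, which binds methylated DNA, was higher by 0.54 ± 0.10. Of 11 tested SWI/SNF subunits outside the set, 2 were higher and 3 lower, among them DPF2 at -0.41 ± 0.04, PHF10 at -0.30 ± 0.10 and BCL7C at -0.27 ± 0.07, while BCL7A was higher by 0.32 ± 0.07. Without knockdown library 2 these calls fell to 1 higher and 2 lower. The ISWI partners had 1 of 7 higher, BAZ2A at 0.48 ± 0.04, and 1 lower, POLE3 at -0.43 ± 0.05.

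PRC1 has further subunits, of which 15 were tested, 4 higher and 5 lower. Without control library 2, and also without knockdown library 3, 2 were higher and 3 lower. PCGF3, of a variant PRC1, stood at 44.4 ± 1.59 CPM in the knockdown and 24.2 ± 2.65 CPM in the control, 0.88 ± 0.09 (adjusted p = 5.98e-06). BCORL1, also of variant PRC1, stood at 37.4 ± 1.04 CPM in the knockdown and 67.6 ± 2.87 CPM in the control, -0.85 ± 0.06 (adjusted p = 2.74e-07). L3MBTL2 gave -0.43 ± 0.07 and PHC1 -0.28 ± 0.09. Of 7 further PRC2 subunits, 1 was higher, PHF1 at 0.14 ± 0.06 (adjusted p = 0.0481), and 2 were lower, RBBP4 and PHF19 at -0.18 ± 0.04. The call of PHF1 was lost with the replicate number as a block, with no filter, with edgeR's own filter and without any 1 of 5 libraries, all but control library 1. Of the 5 tested PR-DUB genes, which remove the ubiquitin that PRC1 adds, FOXK2 was higher by 0.26 ± 0.04, BAP1 was lower at -0.49 ± 0.05 and FOXK1 at -0.11 ± 0.04. FOXK1 had the weaker of the 2 lower calls (adjusted p = 0.0378). The list kept 1 lower call with the replicate number as a block, with no filter and with edgeR's own filter. The same held when any single library other than control library 1 was left out.

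The INO80, SRCAP and TIP60 complexes, which exchange or acetylate histones, had 5 of 19 tested subunits higher and 4 lower. MORF4L2, a TIP60 subunit, stood at 149 ± 4.28 CPM in the knockdown and 63.3 ± 1.45 CPM in the control, 1.24 ± 0.04 (adjusted p = 8.83e-10), the largest change of the partner genes named here from these complexes. INO80C, MRGBP and MORF4L1 were higher by 0.46 to 0.48. Of the 8 tested SIN3 subunits, 2 were higher, SAP18 by 0.73 ± 0.06 and SIN3B by 0.35 ± 0.04, and none was lower, also at an unadjusted p below 0.05 and with DESeq2 or limma-voom. Both shares are near or under the all-gene background of 28.2% higher. With the GC and length correction, the INO80, SRCAP and TIP60 subunits had 7 higher and 1 lower of 19. The SIN3 subunits then had 3 of 8 higher, and over all genes 2774 of 9325 were higher and 2396 lower.

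HOX genes and the INK4 genes CDKN2A and CDKN2B are textbook targets of Polycomb silencing. The list of HOX and INK4 genes, which also holds CDKN2C and CDKN2D, had 15 of 25 genes tested. Of these, 6 were higher and 1 lower, with a median of 0.40, beside the background of 28.2% higher and 29.0% lower. HOXB2 stood at 138 ± 10.6 CPM in the knockdown and 60.9 ± 1.74 CPM in the control, 1.19 ± 0.06 (adjusted p = 1.11e-08). HOXB3 was higher by 0.61 ± 0.10, HOXB4 by 0.26 ± 0.07 and CDKN2C by 0.16 ± 0.04. HOXA10, the lower gene, and CDKN2B were picked out after their values were seen and have fewer counts: HOXA10 gave -1.25 ± 0.27 (adjusted p = 0.00200) and CDKN2B, a cell-cycle inhibitor, 1.99 ± 0.15 (adjusted p = 3.21e-07). HOXA9 and CDKN2A were also added after their values were seen. HOXA9, also of few counts, was higher by 1.01 ± 0.21 (adjusted p = 0.00148). CDKN2A, with the most counts of the list (mean 11200), did not pass (0.19 ± 0.19, adjusted p = 0.428). The proliferation genes, given because EZH2 and HP1 levels are known to differ between dividing and resting cells, had 3 of 12 higher and 5 lower, and summed to 1493 to 1529 CPM in the knockdown, against 1946 to 1992 CPM in the control. MCM3, a replication helicase subunit, fell by 0.85 ± 0.05 and MCM5 by 0.81 ± 0.04, while cyclin A2 (CCNA2) was higher by 0.70 ± 0.08. Their part in the members' changes was not tested.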

How the data were processed

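For 6 poly(A) RNA-seq libraries of MEG-01 cells, 3 knockdown and 3 control, the authors deposited raw counts by gene in a single table. The submitters' processing notes list STAR and HTSeq, with fastp and FastQC, DESeq2 and R 4.3.3, for build GRCh38. How reads were assigned, on which strand and with which annotation is not given in the sources used, so overlapping genes cannot be told apart. Symbols, GC content, lengths and coordinates are from GENCODE release 29. Groups come from the sample titles.

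Counts were fitted with edgeR 4.0.16 (R 4.3.3): TMM scaling, robust quasi-likelihood F-test, no block, Benjamini-Hochberg adjustment over the 9356 genes with a mean above 100 counts, threshold 0.05. The SE of a fold change was its size over the square root of F. Other fits used DESeq2 1.42.0, limma-voom (limma 3.58.1), other scalings and filters, a fold change of 1.5, each library left out, and per-library offsets for GC content and length (natural splines, 5 df). A negative binomial model with an added 0, 1, 2, 10 or 100 (equal chances, dispersion 0.0014 from 1808 genes) gave estimated reads with 95% profile intervals. Replicates of a group differed by more than sampling noise, with a chi-square of 4.28 to 10.5 per gene. The methods were tested on data simulated with the same added numbers and dispersion. Such data cannot show whether the 95% intervals hold for the low members.

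2 members are not reported here. Members and gene lists were chosen with earlier results of these data known. Named genes are MELK, every member described, with values in every library for up to 4 members per complex with the lowest adjusted p and for called members against the direction of most of their complex, and up to 4 genes per partner list with the largest change among those past the threshold at a mean of at least 500 counts. Values in every library of CHD3, EED, ARID5B and SMARCD3, the markers PF4, PPBP and CD3E, and HOXA9, HOXA10, CDKN2A and CDKN2B were added after their values were seen.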

Additional observations from a re-analysis of the deposited data

How the results depend on the processing

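No called member reversed under any setting. Testing against a fold change of 1.5 left 1465 of 5355 calls over all genes and 6 of 23 among the members. These were 5 of the remodeller class, ARID3B and ARID5A among them, 0 readers and 1 Polycomb member. The readers had 0 also at an unadjusted p below 0.05, while without the fold limit edgeR gave 8 and DESeq2 9. In the other fits the members gave 19 calls with no filter to 26 with library size alone. Of the 23 tested members that did not pass, 11 had the opposite sign under at least 1 setting or in the model. With the GC and length offsets these were CBX6 (0.28, the only one then called), ARID3A (0.09), SMARCA2 (-0.07), BRD7 (-0.09) and BMI1 (-0.06). The sign also turned against the model for SMARCD3 (1.12 with filterByExpr, 1.12 with no filter) and ARID5B (-0.26 and -0.26); the cause was not tested. MELK lost its call with filterByExpr (-1.98, adjusted p = 0.104), against a fold change of 1.5 (-1.98, adjusted p = 0.0709) and without knockdown library 3 (-1.66, adjusted p = 0.0593). It ranged from -3.32 to -1.54 with each library left out, and the model gave -3.40 (-3.88 to -2.98). With both genes at a mean of at least 500 counts, 5 of 6 pair ratios did not overlap. The share over all pairs of genes at that level was not computed, so this count has no matching background.

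The replicate number as a block gave 24 member calls (13 higher, 11 lower) and 5360 over all genes. Same-numbered libraries did not deviate together (correlations 0.0998, -0.012 and -0.080), and 2 of 6 libraries correlated best with their own number, so the numbers were not taken as pairs.

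The inferred added number, with a SD of 38.9 counts at equal chances, limits every member with a mean below 500 counts.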
